A study of Mus musculus with 9 samples.

Results

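Mki67, Top2a and 8 genes that act in the mitotic spindle and in cytokinesis (Prc1, Tpx2, Hmmr, Nusap1, Anln, Ect2, Racgap1 and Cep55) were followed in RNA from the inner lining of the mouse thoracic aorta, the endothelium. The 10 genes were chosen by their ACDiEKO minus control difference on these same arrays, so that difference is given for them as a description and without a test. Each was read from the brightest transcript cluster that carries its symbol, and each had only 1. All 10 were among the 30142 named genes of the array and among the 16403 genes bright enough to be tested.

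ACDiEKO mice carried Mef2a f/f, Mef2c f/f and Mef2d f/f with Cdh5-CreERT2(+), a recombinase driven by an endothelial promoter that needs tamoxifen to act. The control littermates had the same 3 floxed alleles, were Cdh5-CreERT2(-) and got tamoxifen as well, so an effect of the recombinase itself and of the loss of MEF2A, MEF2C and MEF2D cannot be told apart. All mice were female and received 5 daily injections at 10 weeks of age. As labelled they gave 1 aorta per array, 5 arrays from ACDiEKO and 4 from control. Aortas were taken 7 days after the start of tamoxifen in the series text but 14 days after it in the sample protocols. RNA was flushed out of the aortic lumen with lysis reagent and 5 ng of each was hybridised, so the samples are bulk RNA.

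A dividing cell copies its chromosomes, lines them up on a spindle of microtubules, pulls the copies apart and then pinches itself into daughter cells. Ki-67, the product of Mki67, coats condensed chromosomes and is the usual stain for cycling cells, and topoisomerase II alpha, the product of Top2a, untangles the sister DNA strands. PRC1 and the RACGAP1 complex bundle the microtubules between the separating chromosomes, ECT2 activates RhoA at the cell equator, anillin ties the contractile ring to the membrane, and CEP55 brings the ESCRT machinery that cuts the last bridge. Endothelium of the adult aorta is known as a tissue in which few cells divide.

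The genes of this programme are known to be switched on late in the cell cycle through a cell cycle homology region (CHR) in their promoters, often a short distance from CCAAT boxes, the letters that NF-Y binds. The RefSeq promoter table (GRCm38.p6, 250 bases before to 50 after each start) held 9 of the 10 genes in 12 windows on 7 chromosomes, and Tpx2 has no entry. The search covered both strands for TTTGAA or TTCGAA as CHR letters and for CCAAT, and TTCGAA, which reads the same on both strands, was counted once. The 220 bases before the start of Mki67 (chr7:135716380-135716599, minus strand) and of Top2a (chr11:99024190-99024409, minus strand) are shown whole because these genes had the largest differences of the 10, and capitals mark the CHR and CCAAT letters on either strand.
Mki67: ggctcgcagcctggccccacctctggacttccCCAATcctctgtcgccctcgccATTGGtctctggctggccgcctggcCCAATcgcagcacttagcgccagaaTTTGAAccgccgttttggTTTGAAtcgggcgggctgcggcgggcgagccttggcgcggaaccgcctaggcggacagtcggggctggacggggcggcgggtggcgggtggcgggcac
Top2a: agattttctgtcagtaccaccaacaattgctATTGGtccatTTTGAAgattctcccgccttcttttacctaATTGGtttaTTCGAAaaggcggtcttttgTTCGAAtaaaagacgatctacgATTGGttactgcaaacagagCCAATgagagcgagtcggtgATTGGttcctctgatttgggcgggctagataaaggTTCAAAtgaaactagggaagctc

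For 6 other genes the stretch that holds the CHR letters, with the nearest CCAAT letters where there are any, is shown to let the spacing be compared. Prc1 (chr7:80294410-80294455, plus), Hmmr (chr11:40733420-40733461, minus), Ect2 (chr3:27153966-27153996, minus) and Racgap1 (chr15:99651642-99651672, minus) pair both motifs. Anln (chr9:22389168-22389197, minus) and Cep55 (chr19:38054996-38055025, plus) had CHR letters and no CCAAT letters in their windows.
Prc1: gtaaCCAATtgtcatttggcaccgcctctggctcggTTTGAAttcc
Hmmr: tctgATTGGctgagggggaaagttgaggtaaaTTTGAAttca
Ect2: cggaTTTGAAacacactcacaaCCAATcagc
Racgap1: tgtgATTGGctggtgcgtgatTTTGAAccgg
Anln: ggggcgctgaaaTTCAAAtTTTGAAcggcc
Cep55: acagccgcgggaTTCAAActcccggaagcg

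CHR letters were found in the windows of 8 of the 9 genes (88.9%), and of 21.7% of the 27025 genes in the promoter table. Both motifs lay within 60 bases of each other in 6 of the 9 genes (66.7%), and in 4.28% of all genes. Mki67 had 2 CHR and 3 CCAAT matches and Top2a had 4 and 6, the most of any of the 9. Nusap1 had neither motif in its window. Letters of the MEF2 motif, searched as YTAWWWWTAR (Y is C or T, W is A or T, R is A or G), were found in 0 of the 9 genes and in 3.7% of all genes. Letters of the E2F motif, searched on both strands as TTTSSCGC (S is C or G), were found in 0 of the 9 genes and in 2.6% of all genes. A match is a run of letters and not a shown binding site, and a window without a match says nothing of the factor.

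**Figure D1:**
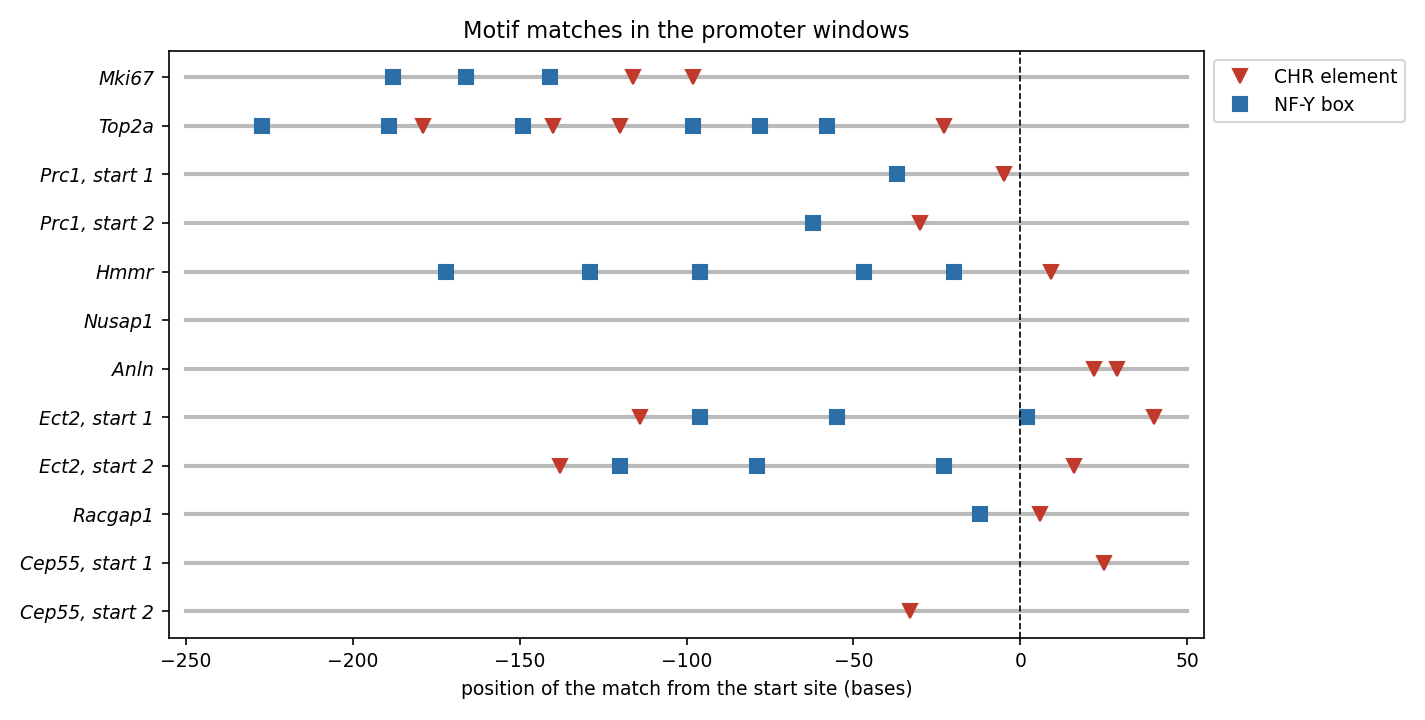
Matches to the CHR and CCAAT letters in the RefSeq promoter windows of 9 genes, labelled CHR element and NF-Y box, by position in bases from the start site (dashed line at 0), with 1 row per start site. The matches of Mki67 and Top2a lie before the start, whereas the single CHR of Racgap1 and the pair of Anln lie after it.

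The deposited values are log2 values made by RMA, a method that corrects background, normalises arrays and summarises probes. Their range was 2.58 to 19.34, wider than a 16-bit scanner spans, which points to a rescaling that no source used here describes, so differences are log2 units of the deposited values, never folds. Probes differ in brightness, so the level of 1 gene is not set against that of another. Array medians were 5.99 to 6.03 in ACDiEKO and 6.03 to 6.11 in control. ACDiEKO replicates 1 and 2 were nearly the same array result, with a robust SD of their difference of 0.0707, where the 15 remaining within-group pairs had 0.2682 to 0.4012. They entered as their mean, which leaves 4 ACDiEKO and 4 control samples. Their titles give different animal numbers, and whether both arrays hold the same RNA cannot be told. The floxed genes, read by whole-transcript probes that do not check the genotype labels, were 13.76 ± 0.18 against 13.64 ± 0.10 for Mef2a (SD, n = 4 each, ACDiEKO first; limma, adjusted p = 0.441), 9.96 ± 0.11 against 9.90 ± 0.09 for Mef2c (adjusted p = 0.660) and 10.53 ± 0.13 against 10.29 ± 0.10 for Mef2d (adjusted p = 0.111).

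The endothelial identity of the RNA was read from 11 measured markers, of which limma called 2 higher and 3 lower, where 8.92% of all tested genes rose and 7.33% fell. Pecam1, an adhesion molecule of endothelial junctions, was 17.23 ± 0.13 in ACDiEKO and 17.60 ± 0.07 in control (limma, adjusted p = 0.0184), and Cdh5, the endothelial cadherin, was 15.83 ± 0.18 and 15.59 ± 0.21 (adjusted p = 0.226). The mean over the 11 was 12.53 to 13.09 in ACDiEKO samples and 12.78 to 13.17 in control samples, an average over genes that went both ways. Of the other 4 called, named here after their values were seen, Emcn, a surface sialoglycoprotein, differed by 3.72 (limma, adjusted p = 0.00249) and the VEGF receptor Kdr by 0.96 (adjusted p = 0.0315), whereas the tight junction gene Cldn5 differed by -3.59 (adjusted p = 0.00305) and the angiopoietin receptor Tek by -1.92 (adjusted p = 0.00522). Robo4, at 6.57 ± 0.23 in ACDiEKO and 6.48 ± 0.10 in control, lay near the filter value of 6.165 in both groups. Smooth muscle markers were the list whose mean did not overlap between groups, 9.06 to 9.86 over ACDiEKO samples against 7.91 to 8.75 over control samples, and 8 of its 12 tested genes rose (8.92% of all tested genes did), while 1 of the 14 measured lay below the filter value of 6.165 in every sample. Acta2, smooth muscle actin, was 17.49 ± 0.49 in ACDiEKO and 14.30 ± 1.30 in control (limma, adjusted p = 0.0105), whereas Myh11, the smooth muscle myosin heavy chain, was 7.36 ± 0.40 and 7.40 ± 0.08 (adjusted p = 0.894). Leukocyte markers were 6.66 to 8.93 in ACDiEKO and 6.38 to 7.16 in control, with 0 of 11 tested genes called, and Ptprc, the pan-leukocyte antigen, was 7.90 ± 1.34 and 7.04 ± 0.22 (limma, adjusted p = 0.344).

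Mki67 and Top2a, the genes of chromosome structure, stood far apart between the groups. Mki67 had 13.87, 13.88, 14.00, 13.98 and 13.12 on ACDiEKO arrays 1 to 5, against 8.26, 8.02, 8.27 and 7.68 on control arrays 1 to 4. The groups did not overlap, with 4.86 log2 units between the lowest ACDiEKO and the highest control array, and ACDiEKO replicate 5 was the low one of its group. The means were 13.74 ± 0.42 in ACDiEKO and 8.06 ± 0.28 in control (SD, n = 4 each), a difference of 5.68 (SE 0.22), which ranked 1 among all 16403 tested genes.

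For Top2a the arrays gave 10.78, 10.79, 11.13, 11.10 and 9.96 in ACDiEKO, against 6.68, 6.63, 6.70 and 6.60 in control. The control arrays lay within a narrow band while the ACDiEKO arrays spread more widely, again with replicate 5 lowest, and 3.26 separated the groups. Top2a averaged 10.74 ± 0.54 in ACDiEKO and 6.65 ± 0.05 in control, a difference of 4.09 (SE 0.24) that ranked 6. Its sister gene Top2b, chosen after its values were seen, encodes the form of the enzyme that also serves cells that do not divide, and was 10.83 ± 0.15 in ACDiEKO and 10.69 ± 0.13 in control, a difference of 0.14 (limma, adjusted p = 0.372).

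**Figure D2:**
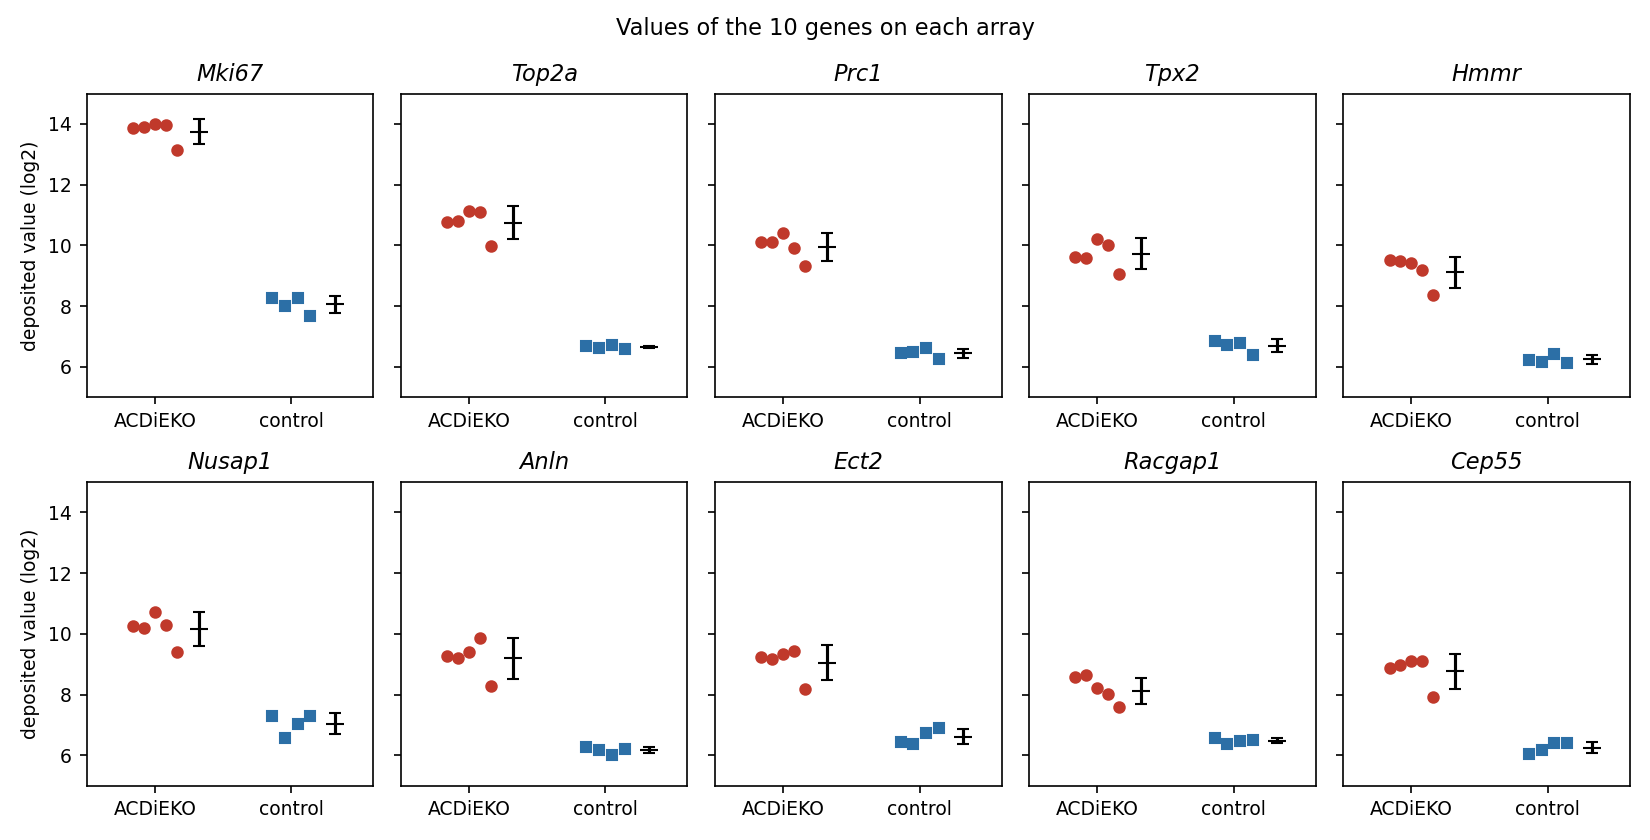
Deposited value (log2) of each of the 10 genes on every array, with ACDiEKO (5 arrays) left of control (4 arrays) in each panel. In every panel all ACDiEKO points lie above all control points, by 4.86 for Mki67 and by 1.01 for Racgap1, and heights are not comparable between panels.

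Among the genes that build and organise the spindle, Tpx2 encodes the protein that activates Aurora A kinase on spindle microtubules. Its values were 9.60, 9.60, 10.21, 10.02 and 9.07 in ACDiEKO, against 6.86, 6.73, 6.79 and 6.38 in control. Replicates 3 and 4 were the high ACDiEKO arrays, control replicate 4 was the low control array, and the groups did not overlap. The means of Tpx2 were 9.72 ± 0.51 and 6.69 ± 0.21, 3.03 apart (SE 0.24; rank 38).

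Hmmr encodes a hyaluronan receptor that also works inside dividing cells as an adaptor of the spindle poles. On the ACDiEKO arrays it was 9.53, 9.48, 9.40, 9.19 and 8.37, against 6.23, 6.17, 6.44 and 6.12 on the control arrays. Here the averaged replicates 1 and 2 were highest and replicate 5 lowest in ACDiEKO, with 1.94 between the groups. Hmmr averaged 9.12 ± 0.51 in ACDiEKO and 6.24 ± 0.14 in control, a difference of 2.88 (SE 0.23; rank 46).

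Nusap1, whose product bundles microtubules close to the chromosomes, read 10.26, 10.19, 10.71, 10.29 and 9.39 in ACDiEKO, against 7.28, 6.56, 7.03 and 7.29 in control. Of the 10 genes it had the widest control spread, from control replicate 2 as the low array, and still did not overlap. Nusap1 means were 10.16 ± 0.55 in ACDiEKO and 7.04 ± 0.34 in control, 3.11 apart (SE 0.28; rank 34).

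Prc1 opens the cytokinesis genes, since its product crosslinks the antiparallel microtubules of the central spindle. Prc1 had 10.13, 10.10, 10.40, 9.92 and 9.33 in ACDiEKO, against 6.45, 6.47, 6.62 and 6.25 in control. Replicate 3 was high in both groups and the groups lay 2.71 apart at their nearest arrays. The mean was 9.94 ± 0.45 in ACDiEKO and 6.45 ± 0.15 in control, a difference of 3.49 (SE 0.21; rank 16), the third largest of the 10.

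Racgap1 encodes the GTPase-activating subunit of centralspindlin, which recruits ECT2 to the midzone. Values of Racgap1 were 8.58, 8.63, 8.23, 8.03 and 7.58 in ACDiEKO, against 6.57, 6.38, 6.46 and 6.51 in control. This gene had the smallest gap between the groups, 1.01, and its high ACDiEKO arrays were replicates 1 and 2 rather than 3 or 4. Its means of 8.11 ± 0.43 in ACDiEKO and 6.48 ± 0.08 in control differed by 1.63 (SE 0.19; rank 227), the smallest difference of the 10.

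Ect2 encodes the exchange factor that loads RhoA with GTP. It was 9.25, 9.18, 9.34, 9.44 and 8.19 on the ACDiEKO arrays, against 6.45, 6.37, 6.74 and 6.89 on the control arrays. The 4 upper ACDiEKO arrays of Ect2 lay close together, replicate 5 stood below them, and all were above the control arrays by 1.30 or more. The means were 9.05 ± 0.58 in ACDiEKO and 6.61 ± 0.24 in control, with a difference of 2.44 (SE 0.27; rank 84).

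Anln encodes anillin, the scaffold that binds RhoA, actin, myosin and septins in the contractile ring. Anln had 9.26, 9.20, 9.39, 9.88 and 8.27 in ACDiEKO, against 6.27, 6.18, 6.02 and 6.20 in control. ACDiEKO replicate 4 was high and replicate 5 low, so Anln had the widest ACDiEKO spread of the 10. Anln averaged 9.19 ± 0.68 in ACDiEKO and 6.17 ± 0.10 in control, a difference of 3.02 (SE 0.30; rank 39).

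Cep55, which recruits the abscission machinery to the midbody, was 8.89, 8.96, 9.10, 9.12 and 7.91 in ACDiEKO, against 6.05, 6.19, 6.39 and 6.39 in control. Its first 4 ACDiEKO arrays were nearly level and replicate 5 lay well under them, yet 1.52 above the highest control array. The group means of Cep55 were 8.76 ± 0.58 in ACDiEKO and 6.26 ± 0.17 in control, 2.51 apart (SE 0.26; rank 77).

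All 10 genes were higher on every ACDiEKO array than on every control array, which held for 11.7% of the 16403 tested genes. All 10 were past an adjusted p of 0.05 on the higher side in limma, as were 8.92% of tested genes, and since the genes were chosen on this difference nothing is read from either count. Their median difference was 3.03, against -0.03 over all tested genes, and 9 of the 10 ranked in the top 100. In bulk RNA, more cells that carry these transcripts and more transcript per cell cannot be told apart. By size the order was Mki67, Top2a, Prc1, Nusap1, Tpx2, Anln, Hmmr, Cep55, Ect2 and Racgap1, with the neighbours from Nusap1 to Hmmr, and Cep55 and Ect2, within 1 SE of each other. Control means of 7 of the 10 lay within 0.5 of the filter value of 6.165 (the median of the table), and for Hmmr, Anln and Cep55 only 3 of the 4 control arrays were above it, so near this floor the differences may be understated.

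With replicate 5 included, the 10 genes varied more among ACDiEKO samples than among control samples. The SD was larger in ACDiEKO for 10 of 10 genes, with a median of 0.53 (0.42 to 0.68) in ACDiEKO against 0.16 (0.05 to 0.34) in control. Over all tested genes the median SD was 0.16 in ACDiEKO and 0.17 in control, and it was larger in ACDiEKO for 46.3%. Around the ACDiEKO mean, the samples other than replicate 5 lay at 0.13 to 0.25 for Mki67, where controls lay at -0.37 to 0.21 around theirs. For Racgap1 the same ACDiEKO samples lay at -0.08 to 0.50, where controls lay at -0.10 to 0.09. Control means of 7 of the 10 lay within 0.5 of the filter value, and whether that narrowed their spread was not tested. The genes were chosen on values of these arrays, so this spread is a description.

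ACDiEKO replicate 5 was the lowest ACDiEKO sample for all 10 genes, and for 23.2% of all tested genes and 50.3% of the genes called higher. Its deviation from the ACDiEKO mean was between -0.92 and -0.53, with a median of -0.75. Even so, replicate 5 lay above the control mean by 5.07 for Mki67, 3.31 for Top2a and 1.09 for Racgap1, where the other ACDiEKO samples averaged 5.89, 4.35 and 1.81 above it. Replicate 5 was also the sample with the highest leukocyte marker mean, 8.93 against 6.66 to 7.31 in the other ACDiEKO samples, and the highest mesothelial marker mean, 8.43 against 6.28 to 8.19, where the 8.19 was replicate 4, which was not low for the 10 genes. Its fibroblast marker mean, for which control samples lay at 9.43 to 9.71, was highest in ACDiEKO too, 9.73 against 8.98 to 9.56. So were its adipocyte marker mean, 9.78 against 7.24 to 9.55, and its erythroid marker mean over 3 measured genes, 7.95 against 7.13 to 7.79. Control samples reached 10.60 and 8.19 for these adipocyte and erythroid means. The part of all these markers in the values of replicate 5 was not tested. The highest ACDiEKO sample was replicate 3 for 5 genes, replicate 4 for 3 and the average of replicates 1 and 2 for 2. Among control samples no single one was lowest throughout: replicate 4 was lowest for 5 genes, replicate 2 for 3 and replicates 1 and 3 for 1 each.

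**Figure D3:**
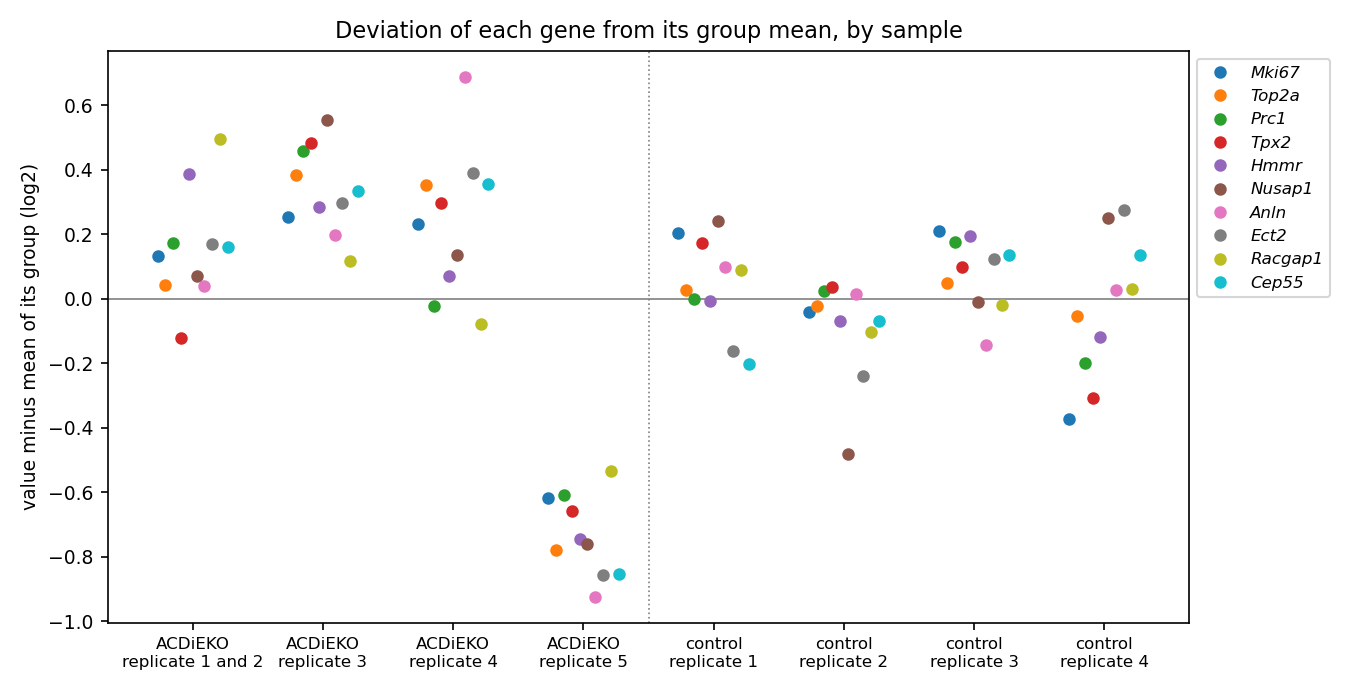
Deviation of each of the 10 genes from the mean of its own group (log2 units) in the 4 ACDiEKO samples, with replicates 1 and 2 averaged, and the 4 control samples. The points of ACDiEKO replicate 5 lie between -0.92 and -0.53, below those of the other samples.

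The smooth muscle markers moved with the same contrast, as given above. With the smooth muscle marker mean of each sample as a covariate, the median difference of the 10 genes was 2.78, against 3.03 without it, and the single genes had differences of 5.33 for Mki67, 2.37 for Anln and 1.32 for Racgap1. Since that mean does not overlap between the groups, it and the genotype cannot be told apart in this fit.

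The genes whose pattern over the 8 samples was most like the mean pattern of the 10 were picked from all tested genes by the smallest root mean square difference after centring each gene on its own mean, and are given without a test. They were Knl1, a kinetochore scaffold (0.148 log2 units), Mastl, the Greatwall kinase (0.162), Asf1b, a histone chaperone (0.170), the cyclin Ccnb2 (0.205), Cdc20, an activator of the anaphase-promoting complex (0.212), the spindle motor Kif11 (0.222), the cyclin Ccna2 (0.236) and Depdc1a (0.238). Their differences were between 2.83 for Cdc20 and 3.54 for Kif11. Each of the 10 genes is part of that mean pattern, so their own distances are not set against those of the other genes. Nearest to that mean pattern among the 10 were Tpx2 (0.182), Hmmr (0.195), Prc1 (0.206), Nusap1 (0.211) and Anln (0.222). Mki67 (1.26) and Racgap1 (0.805) lay farthest from it, Mki67 with a larger and Racgap1 with a smaller difference between groups.

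The proteins that work with the 10 genes were then read from 8 lists of 151 genes, of which 141 were tested. In limma, 56 rose (39.7%) and 13 fell (9.22%), where 8.92% of all tested genes rose and 7.33% fell, and the median difference was 0.20 against -0.03 over all genes. Some that rose, Kif4, Ckap2, Ckap2l and E2f8 among them, had every control array below the filter value of 6.165. Such genes were tested only because their ACDiEKO arrays were bright. A gene bright only in ACDiEKO needed 4 of 5 arrays above that value, and a gene bright only in control needed all 4. Without the filter 49 partner genes rose and 10 fell, while 1089 of the 30142 named genes rose and 881 fell. Over all genes 1463 rose and 1203 fell, a split that was 1853 and 959 after median centring and 1973 and 1037 after quantile normalization. With the smooth muscle marker mean as a covariate limma called 0 of them, with 44 at an unadjusted p under 0.05, and 0 genes in all, with 1362.

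Partners of Prc1, Racgap1, Ect2 and Cep55 at the central spindle and midbody rose without exception, 11 of 11 tested, with a median difference of 2.16. The share that rose over all tested genes was 8.92%. Kif23, the motor that pairs with RACGAP1 in centralspindlin, was 10.12 ± 0.47 in ACDiEKO and 7.40 ± 0.21 in control, 2.72 apart (limma, adjusted p = 0.000546). Aurkb and Birc5, of the chromosomal passenger complex, differed by 2.26 (adjusted p = 0.000828) and 1.56 (adjusted p = 0.000627), and the kinase Plk1 by 2.17 (adjusted p = 0.000745). Kif4, the motor that carries PRC1 to microtubule ends, differed by 2.16 (adjusted p = 0.000768).

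The contractile ring list, where Anln and Ect2 act, did not move one way. Of 23 tested genes 8 rose, 5 fell and 10 did not pass, with a median difference of 0.15. Over all tested genes 8.92% rose and 7.33% fell. Without the 2 controls with animal numbers apart from the rest, 4 rose and 2 fell. The formin Diaph3 was 10.10 ± 0.69 in ACDiEKO and 6.76 ± 0.26 in control, 3.34 apart (limma, adjusted p = 0.000749), and Cfl1 (0.82, adjusted p = 0.00114), Iqgap3 (1.09, adjusted p = 0.00246) and Pfn1 (0.79, adjusted p = 0.00308) rose. Septin11, one of the filament proteins that anillin binds, was 10.62 ± 0.17 in ACDiEKO and 11.61 ± 0.19 in control, a difference of -0.99 (adjusted p = 0.00212). Rhoa, the GTPase that ECT2 loads, was chosen after its values were seen and was 12.90 ± 0.18 in ACDiEKO and 13.03 ± 0.13 in control, a difference of -0.13 (limma, adjusted p = 0.426).

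Downstream of Cep55, the ESCRT abscission list had 0 of 19 genes higher and 1 lower, with a median difference of -0.02. Over all tested genes 8.92% rose and 7.33% fell, and in a list of 19 such counts are not set apart from those shares. Chmp4c, an ESCRT subunit of the abscission checkpoint, was 7.02 ± 0.23 in ACDiEKO and 8.15 ± 0.30 in control, a difference of -1.12 (limma, adjusted p = 0.00465). Chmp5 (-0.46, adjusted p = 0.0756) and the microtubule-severing Spast (0.20, adjusted p = 0.149) did not pass.

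Around Tpx2, Hmmr and Nusap1, 22 of 36 tested spindle assembly genes rose and 0 fell, with a median difference of 0.65. The shares over all tested genes were 8.92% and 7.33%. Kif11, which TPX2 binds, was 9.69 ± 0.51 in ACDiEKO and 6.16 ± 0.28 in control, 3.54 apart (limma, adjusted p = 0.000385), and Kpna2, an importin that holds TPX2 until Ran releases it, differed by 3.50 (adjusted p = 0.000393). Stmn1, a tubulin-binding destabiliser, and Ckap2 and Ckap2l, spindle microtubule proteins, differed by 2.24 (adjusted p = 0.000436), 2.42 (adjusted p = 0.000546) and 2.10 (adjusted p = 0.000546).

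Beside Top2a, a list of 7 genes held other topoisomerases and enzymes that clear them from DNA. Only Top1mt, the mitochondrial topoisomerase, passed, with a difference of 0.32 (limma, adjusted p = 0.0282), where 8.92% of all tested genes rose. That call was lost without control replicate 1, 3 or 4 or ACDiEKO replicate 3 or 4, with an adjusted p of up to 0.0774. Tdp1 and Tdp2, which clear trapped topoisomerases from DNA, did not pass, at 0.41 (adjusted p = 0.0648) and 0.32 (adjusted p = 0.170), and Tdp1 passed without ACDiEKO replicate 3 (adjusted p = 0.0325). Among 8 partners of Ki-67 at the chromosome surface 3 rose, and 0 did without the 2 controls with animal numbers apart from the rest. Cdca2, which like Ki-67 recruits protein phosphatase 1 to chromosomes, differed by 1.37 (adjusted p = 0.00587), and the nucleolar proteins Npm1 and Ncl by 0.47 (adjusted p = 0.0179) and 0.61 (adjusted p = 0.0226), with the call of Ncl lost without control replicate 2, 3 or 4 or ACDiEKO replicate 4 (adjusted p up to 0.0606).

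Of 17 tested regulators of the late cell cycle programme 8 rose and 3 fell, where 8.92% of all tested genes rose and 7.33% fell. Without ACDiEKO replicate 4 the counts were 5 and 1, and 5 rose without control replicate 4 or without the 2 controls with animal numbers apart. The repressors E2f8 and E2f7 differed by 2.74 (limma, adjusted p = 0.000357) and 2.09 (adjusted p = 0.00133), and Tfdp1, Lin9 and Rbl1, a partner of E2F, a MuvB subunit and a pocket protein, by 1.09 (adjusted p = 0.00201), 0.93 (adjusted p = 0.00227) and 1.42 (adjusted p = 0.00693). In the list of mitotic exit 3 genes rose, 4 fell and 13 did not pass, with a median of 0.02, and 1 fell without those 2 controls. The same shares over all tested genes, 8.92% and 7.33%, apply to this list. Cdc20, Ube2c and Fbxo5, which activate, serve and inhibit the anaphase-promoting complex, differed by 2.83 (limma, adjusted p = 0.000627), 2.29 (adjusted p = 0.000739) and 0.97 (adjusted p = 0.0108), and Cdc14a, a phosphatase, and Anapc16, a subunit of the complex, by -1.59 (adjusted p = 0.00248) and -0.71 (adjusted p = 0.0131). Within the partner lists, CHR and CCAAT letters lay within 60 bases of each other in 17 of the 43 called higher that have a promoter window (39.5%) and in 1 of the 67 other tested genes with one (1.49%), where 6 of 9 of the chosen genes had such a pair.

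**Figure D4:**
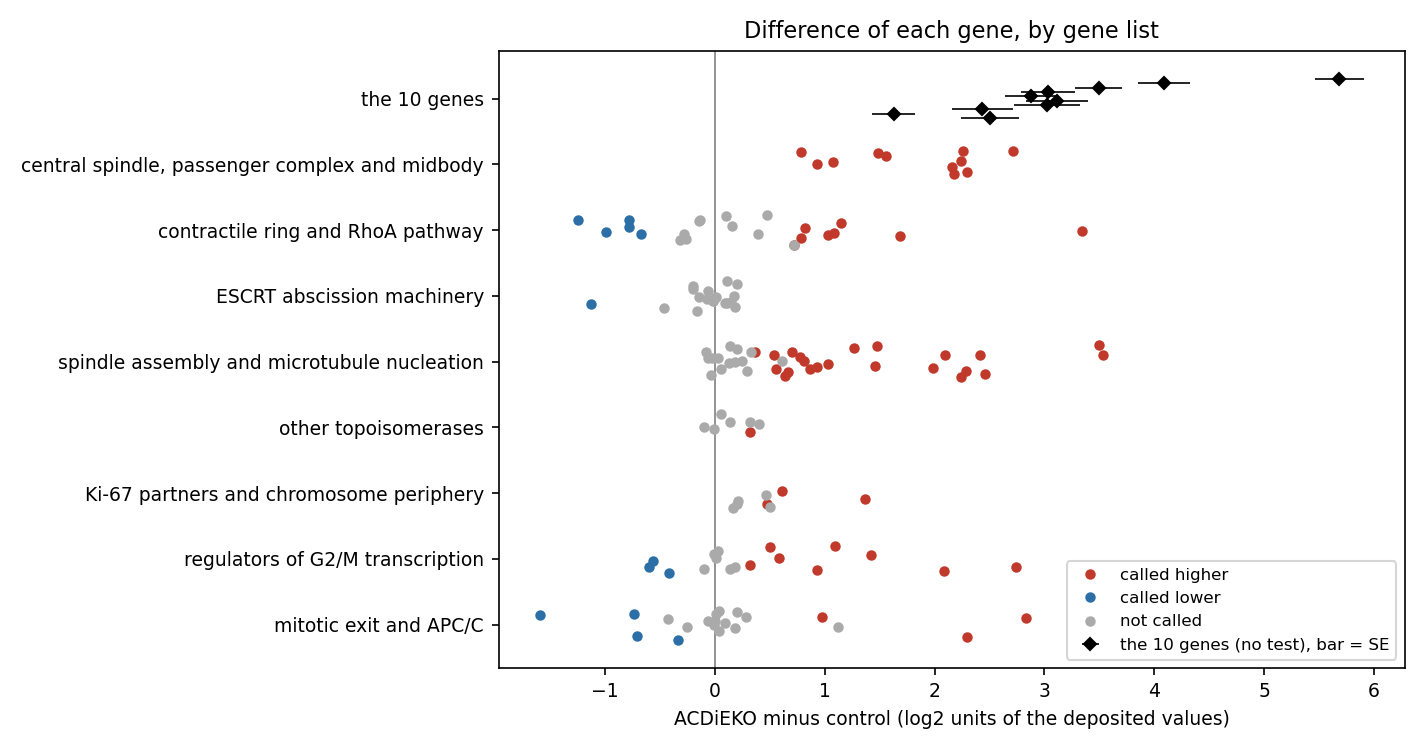
ACDiEKO minus control difference (log2 units of the deposited values) of each gene, with the 10 chosen genes on top (bars, SE) and the 8 partner lists below, coloured by whether limma called the gene higher, lower or neither. All 11 central spindle genes lie at 0.78 or above, while the ESCRT genes lie between -1.12 and 0.20.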

How the data were processed

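Endothelial RNA of mouse thoracic aortas was measured on 9 Clariom D whole-transcript arrays. The values deposited by the authors are on the log2 scale and come from RMA, per the submitters' processing notes, which give no version. The genome build and annotation of the array are not given in the sources used here. Of 72688 features, 6732 array controls were left out, and of 65956 transcript clusters 30604 had 1 symbol, 2146 several and 33206 none listed. RefSeq gene IDs gave 827 of them newer symbols. The brightest cluster per symbol gave 30142 genes, and 16403 with at least 4 arrays above 6.165 were tested with limma 3.58.1 in R 4.3.3 (lmFit, eBayes, ACDiEKO minus control, Benjamini-Hochberg, two-sided, 0.05). Adjusted p-values come from that fit over all tested genes. The number of arrays limits the precision, and since replicates are single aortas, the p-values measure the spread between them.

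The 10 genes and the gene lists were chosen with earlier results of these data known. Named are the 10 genes, the 3 lowest p-values of each partner list (at most 5 if more passed), the 8 most similar profiles, Pecam1, Cdh5, Acta2, Myh11 and Ptprc, any marker list whose mean does not overlap between groups, and Mef2a, Mef2c and Mef2d. Hbb-bs is not on a cluster with 1 symbol and was not analysed here. Foxm1 and the other listed partner genes without such a cluster were not analysed either.

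Number 3 stands in 2 control titles; the one later in accession order is control replicate 4 here. The title numbers were checked as a pairing: deviations from group means correlated at -0.0049, -0.1452, 0.0353 and 0.0413 between arrays of 1 number, and so no pairing is used. On simulated data (5 runs, 200 of 16403 genes changed) the fit found 78% of changes of 1 log2 unit and 95% of changes of 2, and 5.25% of its calls were false. Each gene was simulated on its own, without variation shared between genes, so these rates may not hold for the real arrays.

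Fibroblast markers (1 of 8 tested genes lower), erythroid, mesothelial and adipocyte markers (0 called each) overlapped between the groups, and the 3 measured Schwann cell markers lay below 6.165 in every sample. Alternatives were median centring, quantile normalization, no filter, a stricter filter (75th percentile, 8.417), cluster means per gene, robust variance with an intensity trend, all 9 arrays as samples, a fit without both near-identical arrays, the smooth muscle marker mean or the run of animal numbers as a covariate, a fit that leaves out the 2 controls with animal numbers apart from the rest, the title number as a replicate block, and leaving out each array. Figures were drawn with matplotlib 3.10.9.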

Additional observations from a re-analysis of the deposited data

Results flagged for a closer look

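Groups of 4 samples were searched for a sample far from the other 3, over the 10 genes, the named partner genes and the genes with the most similar profiles. Of 100 groups 7 held one, where chance gives about 1 in 20 for unrelated groups. These genes vary together and some were picked for a similar profile, so nothing is read from that count. ACDiEKO replicate 5 was far below the other ACDiEKO samples for Mki67, at 13.12 against 13.88 to 14.00, and for Cep55, at 7.91 against 8.92 to 9.12. The same sample was low for Kif11, at 8.94 against 9.89 to 9.99, and for Ckap2l, at 7.47 against 7.96 to 8.03. Among controls, Kif11 was low in replicate 2 (5.75 against 6.25 to 6.36), Kif4 in replicate 1 (5.56 against 5.82 to 5.88) and Top1mt in replicate 1 (7.22 against 7.40 to 7.41).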

How the results depend on the processing

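The differences of the 10 genes were recomputed 209 times over 21 alternatives, and all 209 were above 0, from 1.32 to 5.89; 205 moved by less than 1 SD, and the other 4 were Mki67, Anln and Racgap1 with the smooth muscle covariate and Racgap1 with the replicate block (1.97). Their median was between 2.78 with that covariate and 3.29 without ACDiEKO replicate 5. Of 1463 genes higher and 1203 lower, limma called 634 and 493 when the 2 controls with animal numbers apart from the rest were left out (6 partner genes lower), 934 and 758 with a term for the run of animal numbers, and 0 and 0 (0 partner genes either way) with the smooth muscle covariate, where 1362 genes and 44 partner genes had an unadjusted p under 0.05. Without both near-identical arrays 801 genes were lower, and the stricter filter left 37 partner genes higher. Leaving out each array gave 948 to 1466 genes higher and 732 to 1235 lower, lowest without ACDiEKO replicate 4, 45 to 56 partner genes higher and 9 to 13 lower. Median centring gave 1853 higher and 959 lower and quantile normalization 1973 and 1037, with the median of all genes at 0.04 and 0.03, against -0.03 without either. In the replicate block by title number (9 arrays) 1302 genes were higher and 1049 lower, with 55 and 9 partner genes. Without the 2 apart controls the calls of Top1mt (adjusted p = 0.0808), Cdca2 (0.0634), Npm1 (0.119), Ncl (0.146), Fbxo5 (0.0965) and Anapc16 (0.0774) were lost, and those of Npm1, Ncl and Fbxo5 with the run term, under which Tdp2 passed (0.00839). The values with the run term were 0.0799 for Npm1, 0.0996 for Ncl and 0.0564 for Fbxo5. Tdp2 passed without the 2 controls too (0.0221), and Tdp1 with median centring (0.0386) or all 9 arrays (0.0374). Without both near-identical arrays Top1mt (0.0765) and Ncl (0.0613) were lost. Of 336 counts of single lists 298 stayed within 1.5 times. The cause was not tested. Whether the background limits the differences of genes near the filter value was not tested.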
